A study of Mus musculus with 32 samples.

Results

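Mouse E14TG2a embryonic stem (ES) cells made to differentiate with 1% dimethyl sulfoxide (DMSO) were compared with the same line treated with 3 mM hexamethylene bisacetamide (HMBA). The comparison rests on 12 of the series' 32 arrays, chosen by treatment label: 6 DMSO arrays and 6 HMBA arrays. Each treatment has 2 arrays on each of days 2, 4 and 6, one with the treated sample in Cy3 (replicate 1) and one with it in Cy5 (replicate 2). Arrays of the same day and dye orientation form 6 matched DMSO and HMBA pairs. Every array carried cDNA of treated cells against cDNA of untreated E14 cells, the common reference, on a custom 2-colour platform. The same 18-array set holds 6 arrays of 0.1 µM retinoic acid (RA), used here only to estimate the spread. The remaining 14 arrays, from knockdown cells on another platform, were not used. No group carries an engineered allele. Both treatments share the cell line, the untreated reference, the days and the extraction, but they are 2 different compounds at 2 different doses, so only the days are matched and no comparison at equal dose can be made. The labels do not say whether the 2 arrays of a treatment and day hold separate cultures, so p-values measure the spread between arrays, which may be technical.

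DMSO and HMBA are small polar compounds long used to push transformed blood cell precursors towards red cells, and DMSO is also used to drive embryonal carcinoma cells towards muscle. HMBA, a long chain with an acetamide group at each end, is known to release the kinase P-TEFb from its inhibitory complex with 7SK RNA. In ES cells either compound can serve to start differentiation. ES cells lie close to the pluripotent epiblast of the embryo, and the outer layer of the blastocyst, the trophectoderm, is an epithelium rich in simple keratins that forms the placenta. Cells that leave pluripotency may pass through an epiblast state marked by Otx2, Fgf5 and Dnmt3b before they enter a lineage.

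All values are log2 ratios of treated over untreated cells, as deposited, with 2 taken as the base of the log, which the sources used here do not give. A difference is DMSO minus HMBA on this scale, averaged over the 3 days unless a day is named, and it is printed ± its standard error (SE). A positive difference means a higher ratio with DMSO and a negative one a higher ratio with HMBA. A probe was called when its Benjamini-Hochberg adjusted p from limma, with a mean for each treatment and day and a term for dye orientation, was under 0.05. Probes with values numbered 11257 to 20019 per DMSO or HMBA array. The lowest number belonged to replicate 2 of DMSO on day 4, which also had the widest spread of ratios (SD 0.79 over its probes, against 0.43 to 0.69 on the other 11). Its ratios correlated at r = 0.16 with those of its dye-swapped partner, and the 2 DMSO arrays of day 2 at r = -0.01, while the other 4 such pairs gave r = 0.50 to 0.66 over probes. Some results are therefore also given without the day 4 array. Without it, the number of called members moved by at most 2 in each direction in every gene list below, in the mean over days. Arrays of bulk RNA cannot tell fewer cells of a type from less RNA per cell.

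Of 16587 probes tested, 1607 differed between the treatments in the mean over days (9.69% of those tested). Of these, 692 were higher with DMSO (4.17%) and 915 higher with HMBA (5.52%). Under quantile normalization the 2 directions were nearly equal, at 658 and 682. The median difference over all tested probes was 0.03. At least 2-fold differences were mostly in 1 direction, with 40 called probes higher with DMSO by 1 log2 unit or more and 105 higher with HMBA. The number of called probes was lowest on day 2 and highest on day 6. Under quantile normalization day 4 was lowest instead, with 351, 298 and 823 on the 3 days. On day 2, 183 probes differed (1.1%), 36 of them higher with DMSO and 147 higher with HMBA. On day 4 there were 568 (3.42%), divided into 226 and 342, and on day 6 there were 1054 (6.35%), divided into 473 and 581. Against the untreated cells, both treatments moved many more probes. With DMSO 3781 rose (22.8%) and 3053 fell (18.4%), and with HMBA 4020 rose (24.2%) and 3944 fell (23.8%). The counts of differing probes depend on how the dye-swapped arrays are used: without the dye term 242 probes were called in the mean over days, and with each pair of swapped arrays averaged, so that the days act as replicates, 199 of 10763 were. Without replicate 2 of DMSO on day 4 the mean over days gave 1479 and day 4 gave 341.

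**Figure D1:**
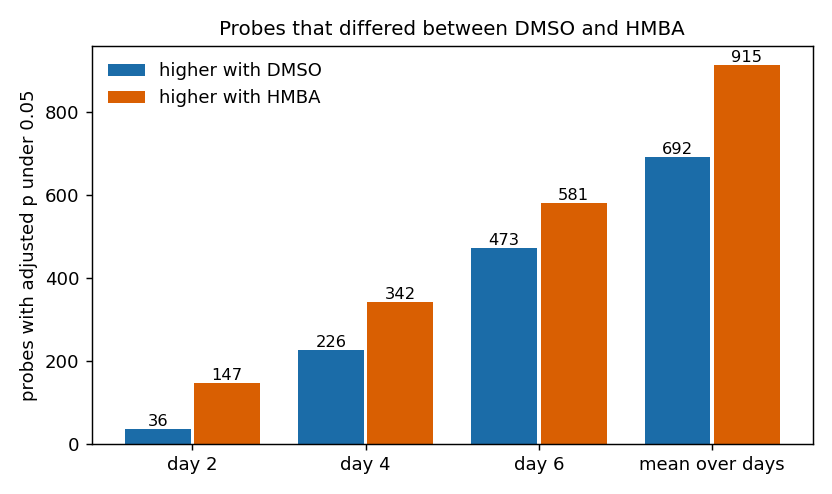
Number of probes with adjusted p under 0.05 (vertical axis) for the DMSO minus HMBA difference on each day and in the mean over days, by direction. The bars higher with HMBA are taller than those higher with DMSO on all 3 days, at 147 against 36, 342 against 226 and 581 against 473.

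Among genes with values on all 12 arrays and 1 sign in all 6 pairs, the 12 highest with HMBA relative to DMSO included 2 keratins, an actin regulator and a growth factor ligand. Krt8, a simple epithelial keratin, had DMSO ratios of 1.12 and 1.02 on day 2, 1.33 and 1.51 on day 4 and 1.82 and 1.37 on day 6. Its HMBA ratios were 3.08 and 2.64 on day 2, 3.96 and 3.70 on day 4 and 3.90 and 3.89 on day 6. All 6 HMBA arrays lay above all 6 DMSO arrays although Krt8 was above untreated on every array, and the difference was -2.17 ± 0.11 (adjusted p = 1.88e-09), a 4.49-fold higher ratio with HMBA. Krt19, its type I counterpart in many epithelia, gave -0.40 and -0.47 on day 2, 0.63 and 0.50 on day 4 and 1.51 and 1.48 on day 6 with DMSO. With HMBA it gave 1.89 and 1.74 on day 2, 2.44 and 2.39 on day 4 and 3.66 and 3.60 on day 6, again with no overlap, a difference of -2.08 ± 0.12 (adjusted p = 2.36e-09). Ratios of Krt19 climbed from day 2 to day 6 in both treatments and the difference was -2.25, -1.85 and -2.14 on the 3 days.

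Hbegf, an EGF receptor ligand made as a membrane-bound precursor, had the largest of these differences on day 2, -2.85. Its DMSO ratios were below untreated throughout, at -1.52 and -1.31 on day 2, -1.52 and -1.33 on day 4 and -1.16 and -1.48 on day 6. With HMBA it was above untreated on 5 of 6 arrays, at 1.49 and 1.39 on day 2, 0.20 and -0.19 on day 4 and 0.42 and 0.36 on day 6. The groups did not overlap, and the difference was -2.0 ± 0.10 (adjusted p = 1.88e-09). S100a6, a calcium-binding protein, ranged from -1.63 to 0.54 with DMSO and from 0.83 to 2.68 with HMBA (-2.10 ± 0.12, adjusted p = 2.36e-09). Gsn, which encodes the actin-severing protein gelsolin, ranged from -0.38 to 0.71 with DMSO and from 0.72 to 3.52 with HMBA (-2.19 ± 0.11, adjusted p = 1.88e-09). In neither gene did the groups overlap.

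Id2, an inhibitor of basic helix-loop-helix factors, was at -0.13 and -1.24 on day 2, 0.52 and -1.19 on day 4 and 2.48 and 1.16 on day 6 with DMSO and at 1.27 and 0.42 on day 2, 3.83 and 2.54 on day 4 and 3.89 and 2.50 on day 6 with HMBA. Here the groups overlapped across days but not within a day, and the difference was -2.15 ± 0.12 (adjusted p = 2.36e-09). The other 6 of the 12 genes named in this direction were Phlda2 (-2.23 ± 0.13), Peg10 (-2.20 ± 0.14), the tissue factor gene F3 (-1.96 ± 0.12), the cell-cycle inhibitor gene Cdkn1c (-1.90 ± 0.11), the scaffold protein gene Ahnak (-1.89 ± 0.10) and the annexin gene Anxa2 (-1.86 ± 0.12). Their adjusted p ran from 1.88e-09 to 8.63e-09. Ahnak had 3 probes, all higher with HMBA, and its other 2 gave -1.60 and -0.78. With the swapped arrays averaged, 10 of the 12 were still called, and Phlda2 (adjusted p = 0.0553) and Cdkn1c (adjusted p = 0.0748) were not.

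By the same rule, the 12 genes highest with DMSO included transcription factors of the early embryo. Pim2, a serine/threonine kinase gene, was at 2.77 and 2.76 on day 2, 1.89 and 1.66 on day 4 and 1.56 and 1.61 on day 6 with DMSO. With HMBA it was at 2.17 and 2.19 on day 2, 0.07 and 0.02 on day 4 and -1.59 and -2.05 on day 6, so both treatments started high and only the HMBA arrays of day 6 were below untreated. The difference was 1.91 ± 0.12 (adjusted p = 5.10e-09). Otx2, a homeobox factor of the epiblast and anterior neural plate, was at 0.19 and 0.21 on day 2, -0.61 and -0.17 on day 4 and -1.32 and -1.50 on day 6 with DMSO and at -0.58 and -0.74 on day 2, -2.82 and -2.97 on day 4 and -2.48 and -2.89 on day 6 with HMBA. It was lower with HMBA in all 6 matched pairs, by the most on day 4, and the difference was 1.55 ± 0.12 (adjusted p = 7.01e-08), or 2.92-fold. Lef1, a transcription factor of the Wnt pathway, stayed above untreated on all 6 DMSO arrays (0.06 to 1.98) and went from above untreated on day 2 to below it on days 4 and 6 with HMBA (-1.35 to 1.28), a difference of 1.42 ± 0.10 (adjusted p = 2.61e-08).

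Foxh1 encodes the forkhead factor that carries Nodal signals to DNA with Smad proteins. Its ratios ran from 0.27 to 1.64 with DMSO and from -2.62 to 0.59 with HMBA, and both of its probes gave nearly the same difference, 1.38 and 1.36. Irf1, an interferon regulatory factor, lay between 0.69 and 1.34 on the DMSO arrays and between -1.53 and 0.61 on the HMBA arrays, with no overlap (1.34 ± 0.10, adjusted p = 9.91e-08). The other 7 of the 12 were the fatty acid transporter and acyl-CoA ligase gene Slc27a2 (1.58 ± 0.10), the glutathione transferase gene Gstt2 (1.36 ± 0.13), the cationic amino acid transporter gene Slc7a3 (1.29 ± 0.12), Emb (1.27 ± 0.11), Epdr1 (1.27 ± 0.10), Zfp946 (1.15 ± 0.15) and 1700041A01Rik (1.14 ± 0.14). Adjusted p over the 12 ran from 5.10e-09 to 6.05e-05. With the swapped arrays averaged, Pim2, Otx2, Lef1, Foxh1, Irf1 and Slc7a3 were not called (adjusted p = 0.0555 to 0.114). Without the dye term Slc7a3, Emb, Zfp946 and 1700041A01Rik were not (adjusted p = 0.0588 to 0.5).

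**Figure D2:**
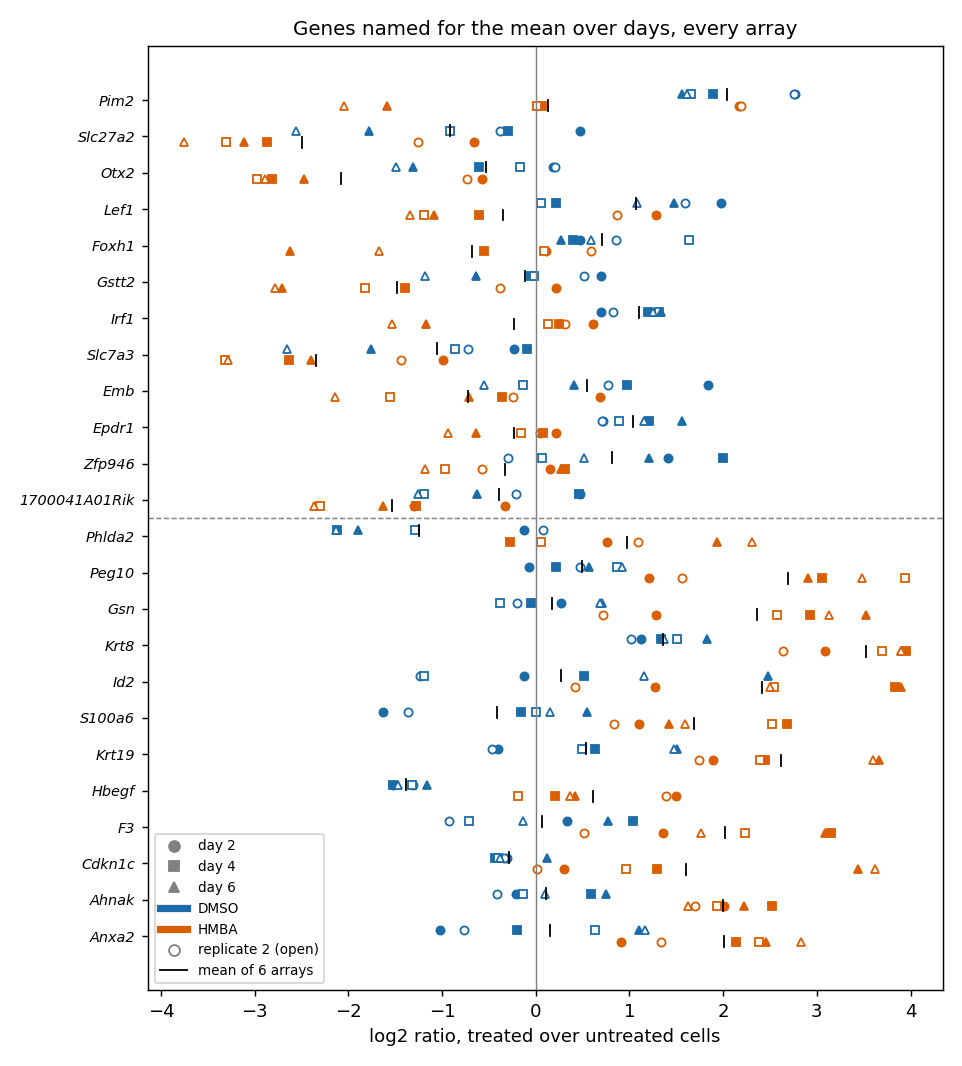
Log2 ratio over untreated cells (horizontal axis) on every array for the 12 genes highest with DMSO (above the dashed line) and the 12 highest with HMBA, among genes with values on all 12 arrays and 1 sign in all 6 pairs, with days as marker shapes, filled markers for the sample in Cy3, open markers for the sample in Cy5, and black bars for the mean of 6 arrays. The HMBA arrays of Krt8, Krt19 and Hbegf sit to the right of all DMSO arrays, while Pim2 overlaps only through its day 2 HMBA arrays.

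Trophectoderm and epithelial keratin genes were the group with the largest shift. Of 26 measured members, 15 were called higher with HMBA and 1 higher with DMSO, against 5.52% and 4.17% of all probes, and their median difference was -0.85 against 0.03 over all probes. Among the keratins, Krt7, measured on 5 DMSO arrays, gave -1.99 ± 0.12 (adjusted p = 6.84e-09), beside the values of Krt8 and Krt19 above. Krt18, the usual partner of Krt8, gave -0.11 ± 0.11 (adjusted p = 0.641), and its ratios to untreated were -0.19 with DMSO and -0.08 with HMBA. That value rests on a single probe and was picked out after the values were seen.

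Transcription factors of the trophoblast were also in this list. Gata3 was at 2.29 and 1.94 on day 2, 3.35 and 2.74 on day 4 and 3.16 and 2.92 on day 6 on the 6 HMBA arrays. Only 3 DMSO arrays measured it, at -0.07 on day 2, 0.93 on day 4 and 0.97 on day 6, all below the lowest HMBA array. The difference was -2.22 ± 0.17 (adjusted p = 6.09e-07). Gata2, measured on 4 DMSO and 5 HMBA arrays, gave -1.78 ± 0.15 (adjusted p = 3.56e-06). Tfap2c, which encodes AP-2 gamma, was below untreated on all 6 DMSO arrays (-2.64 to -0.84), and with HMBA it went from -0.45 and -0.59 on day 2 to 1.13 and 1.29 on day 6 (-1.69 ± 0.12, adjusted p = 4.17e-08). Eomes, which both trophoblast and primitive streak use, was the 1 member higher with DMSO (1.21 ± 0.11, adjusted p = 1.50e-06, 5 DMSO arrays). Cdx2 gave 0.21 ± 0.15 (adjusted p = 0.452), and Elf5 and Hand1 were not analysed here.

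Among its placental genes, Peg10 differed most on day 4 (-2.96 ± 0.24, against -2.45 ± 0.24 on day 6), and the following 4 on day 6. Rhox6, a homeobox gene of the X-linked Rhox cluster, was at -0.18 and -0.52 on day 2, -0.07 and -0.60 on day 4 and 0.18 and -0.64 on day 6 with DMSO and at -0.09 and -0.65 on day 2, 1.14 and 0.39 on day 4 and 4.47 and 3.76 on day 6 with HMBA. No difference passed on day 2 (0.02 ± 0.18), and on day 6 the HMBA ratios were 20.4-fold higher (-4.35 ± 0.18, adjusted p = 1.26e-10). Rhox9, its neighbour in the cluster, gave 0.03 ± 0.24 on day 2 and -3.85 ± 0.24 on day 6. Plac1, a trophoblast gene measured on 5 DMSO arrays, gave 0.08 ± 0.22 on day 2 and -2.78 ± 0.22 on day 6. Nrk, a kinase gene expressed in placental trophoblast, gave -0.58 ± 0.19, -1.90 ± 0.24 and -3.72 ± 0.19 on the 3 days, with 5 DMSO arrays. Over the list, calls higher with HMBA numbered 7 on day 2 and 12 on each of days 4 and 6, against 0.886%, 2.06% and 3.5% of all probes. With the swapped arrays averaged, 4 of the 15 members that could be fitted were called, and without the dye term 11 of 26 were, with 2, 6 and 11 on the 3 days. Without replicate 1 of DMSO on day 4, 8 of the 15 members called in the mean over days had no DMSO value left on that day and could not be fitted. The counts were then 7 in the mean over days and 5, 5 and 6 on the 3 days. The day 2 count was 2 without either DMSO array of that day and 3 without replicate 1 of HMBA.

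Imprinted genes, several of which restrain or promote growth of the placenta and fetus, also lay mostly on the HMBA side, with 12 of 24 higher with HMBA and 3 higher with DMSO, against 5.52% and 4.17% of all probes, and a median of -0.44. H19, a maternally expressed noncoding RNA, was at -0.28 and -0.41 on day 2, -0.09 on day 4 and 1.70 and 2.06 on day 6 on 5 DMSO arrays and at 0.43 and 1.03 on day 2, 3.21 and 3.58 on day 4 and 4.74 and 5.01 on day 6 with HMBA. Its ratios were highest on day 6 in both treatments and higher with HMBA on each day (-2.45 ± 0.15, adjusted p = 9.52e-09). Phlda2, a maternally expressed gene that limits placental growth, was at -0.13 and 0.08 on day 2, -2.13 and -1.29 on day 4 and -1.90 and -2.14 on day 6 with DMSO. With HMBA it was at 0.76 and 1.09 on day 2, -0.27 and 0.05 on day 4 and 1.93 and 2.31 on day 6, so the 2 treatments ended on opposite sides of untreated, with a day 6 difference of -4.14 ± 0.23 (adjusted p = 5.97e-09). Cdkn1c, from the same imprinted region, stayed between -0.44 and 0.12 with DMSO and reached 3.44 and 3.62 on day 6 with HMBA.

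Peg10, a paternally expressed gene derived from a retrotransposon and needed in the placenta, gave -2.20 ± 0.14, and all 6 HMBA arrays lay above the 6 DMSO arrays. The 3 imprinted genes higher with DMSO were Snrpn (0.84 ± 0.11), Rian (0.62 ± 0.11) and Meg3 (0.75 ± 0.17), the last 2 being maternally expressed noncoding RNAs of the Dlk1 region. Dlk1 itself lay on the other side (-0.70 ± 0.11, adjusted p = 4.69e-04). Without the dye term 10 imprinted genes were called higher with HMBA and 2 higher with DMSO, and with the swapped arrays averaged 3 of 19 were higher with HMBA.

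Cytoskeletal and contractile genes were also mostly on the HMBA side, with 14 of 30 higher with HMBA, 0 higher with DMSO and a median of -0.38. Of all probes 5.52% and 4.17% were called in these directions. The 14 were S100a6, Anxa2, Lmna, Acta2, Lgals1, Anxa1, Tpm2, S100a10, Actn1, Vim, Myh9, Tpm1, Actn4 and Actg2. Smooth muscle members such as Cnn1, Tagln, Myl9, Smtn, Des, Cald1 and Lmod1 were not called. On day 2, 12 members were higher with HMBA, against 0.886% of all probes. That count was 6 or 7 without any 1 of the 4 arrays of day 2, and 3 without the dye term. In the mean over days 6 members were called without the dye term, and 7 of 23 with the swapped arrays averaged. Anxa2, a membrane-binding protein, was at -1.02 and -0.77 on day 2, -0.20 and 0.63 on day 4 and 1.10 and 1.17 on day 6 with DMSO and 0.91 and 1.34 on day 2, 2.14 and 2.38 on day 4 and 2.45 and 2.83 on day 6 with HMBA, higher with HMBA in all 6 pairs (-1.86 ± 0.12, adjusted p = 7.94e-09). Lmna, the lamin A/C gene, was below untreated on 5 of 6 DMSO arrays (-0.50 to 0.21) and above it on all HMBA arrays (0.85 to 1.30), without overlap (-1.31 ± 0.11, adjusted p = 4.42e-07). Acta2, smooth muscle actin, peaked on day 4 in both treatments, at 1.45 and 1.64 with DMSO and 3.19 and 3.14 with HMBA (-1.25 ± 0.12, adjusted p = 1.26e-06). Against untreated cells, 20 members rose and 3 fell with DMSO, and 27 rose and 1 fell with HMBA.

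Basement membrane genes lay in the same direction, with 8 of 23 higher with HMBA, 0 higher with DMSO and a median of -0.33. Of all probes 5.52% were higher with HMBA and 4.17% higher with DMSO. At an unadjusted p under 0.05, members higher with DMSO numbered 1 in the contractile list and 1 in the basement membrane list. Calls in the basement membrane list numbered 3 without the dye term, and 3 of 18 with the swapped arrays averaged. Col4a1 and Col4a2, the chains of its main collagen, gave -1.60 ± 0.12 (adjusted p = 1.35e-07, 5 DMSO arrays) and -1.28 ± 0.13 (adjusted p = 2.30e-06). Hspg2, the perlecan gene, gave -1.26 ± 0.17 and the laminin receptor gene Dag1 -0.73 ± 0.10. Of 19 fibrillar collagen and interstitial matrix genes 4 were higher with HMBA (1 without replicate 1 of DMSO on day 4) and 1 higher with DMSO. Col1a2, a chain of type I collagen, gave -1.34 ± 0.13 (adjusted p = 2.60e-06, 5 DMSO arrays), while the gelatinase gene Mmp2 was higher with DMSO (0.66 ± 0.10, adjusted p = 3.98e-04).

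Epiblast genes were the list shifted most to the DMSO side, with 10 of 17 higher with DMSO, 2 higher with HMBA and a median of 0.63. Of all probes 4.17% were higher with DMSO and 5.52% higher with HMBA. Fgf5, the classic marker of the post-implantation epiblast, was at 2.35 and 1.84 on day 2, 1.92 on day 4 and 1.40 on day 6 on the 4 DMSO arrays that measured it. With HMBA it was at 1.45 and 0.69 on day 2, -0.10 and -0.74 on day 4 and -0.25 and -0.67 on day 6, so it was above untreated on day 2 in both treatments and stayed so only on the DMSO arrays (1.52 ± 0.14, adjusted p = 1.98e-06). Dnmt3b, a de novo DNA methyltransferase gene that rises as cells leave the naive state, was at 2.29 and 1.72 on day 2, 0.68 and -0.28 on day 4 and -0.18 and -0.95 on day 6 with DMSO and 0.73 and 0.09 on day 2, -0.11 and -0.84 on day 4 and -1.20 and -1.78 on day 6 with HMBA. Its ratios were highest on day 2 in both treatments and higher with DMSO in all 6 pairs (1.07 ± 0.10, adjusted p = 9.95e-07).

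Dnmt3l, its catalytically inactive cofactor, lay on the other side. It was below untreated on all 6 DMSO arrays (-3.90 to -0.89) and on 5 of 6 HMBA arrays (-2.68 to 0.21), with a difference of -1.40 ± 0.12 (adjusted p = 2.56e-07). Cdh2, the N-cadherin gene, was the second epiblast member higher with HMBA (-0.89 ± 0.14, adjusted p = 3.84e-04). Without the dye term 5 of 17 members were higher with DMSO and 1 higher with HMBA. With the swapped arrays averaged 0 of 14 were called higher with DMSO and 1 higher with HMBA.

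Pluripotency genes mostly fell in both treatments, and those that differed divided between them. Against untreated cells 28 of 30 fell with DMSO and 27 with HMBA, beside 18.4% and 23.8% of all probes, in cells whose label is an ES line. In the difference 6 were higher with DMSO and 8 higher with HMBA, against 4.17% and 5.52% of all probes, with a median of -0.22. Pou5f1, which encodes Oct4, was at 0.15 and 0.33 on day 2, -0.82 and -0.51 on day 4 and -1.22 and -1.66 on day 6 with DMSO and 0.10 and -0.38 on day 2, -1.78 and -2.32 on day 4 and -2.0 and -2.44 on day 6 with HMBA. It was lower with HMBA in all 6 pairs (0.85 ± 0.13, adjusted p = 3.98e-04). Sox2 was lower with DMSO (-0.57 ± 0.13, adjusted p = 0.0099), most clearly on day 4 (-1.27 ± 0.23). For Nanog no difference passed the test (-0.16 ± 0.10, adjusted p = 0.405), with ratios of -2.12 to -0.92 on the DMSO arrays and -1.85 to -0.83 on the HMBA arrays.

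Dppa5a, an RNA-binding protein gene of ES cells, was at -2.73 and -2.35 on day 2, -4.46 and -4.11 on day 4 and -4.20 and -4.23 on day 6 with DMSO and -2.51 and -2.37 on day 2, -2.33 and -2.24 on day 4 and -2.60 and -1.95 on day 6 with HMBA. No difference passed on day 2, and on days 4 and 6 every DMSO array was below every HMBA array (-1.34 ± 0.10, adjusted p = 9.91e-08). Zfp42, or Rex1, a naive-state marker, also ended lower with DMSO (-1.77 ± 0.20 on day 6), as did the naive factor Klf4 (-1.83 ± 0.28) and Dppa2 (-2.11 ± 0.19). Dppa2 was first lower with HMBA (0.82 ± 0.19 on day 2), so its difference changed sign between days. The members lower with HMBA were Tdgf1, the Nodal co-receptor gene (0.84 ± 0.11), the forkhead factor Foxd3 (0.94 ± 0.13), the DNA demethylase gene Tet1 (0.73 ± 0.10), Pou5f1, Jarid2 (0.49 ± 0.10) and Gdf3 (0.53 ± 0.15). Without the dye term Sox2 was not called (adjusted p = 1), nor were Klf4 (0.431), Zfp42 (0.656) and Tdgf1 (0.568). With the swapped arrays averaged Pou5f1 was not called either (adjusted p = 0.0764).

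Signalling genes differed in both directions. In the list of 26 Nodal, BMP and TGF-beta genes 7 were higher with DMSO (4.17% of all probes) and 8 higher with HMBA (5.52%). The latter were 3 without replicate 1 of DMSO on day 4, when 4 of the 8 could not be fitted, and 5 without replicate 1 of HMBA on day 4 or on day 6. Those higher with DMSO were Nodal itself (1.10 ± 0.12, adjusted p = 5.50e-06), its feedback inhibitor Lefty1 (1.11 ± 0.12, adjusted p = 9.67e-06), Tdgf1, Gdf3, Fst, Bmp7 and Tgif1. Lefty1 was at -1.07 and -0.56 on day 2, 0.50 and 0.97 on day 4 and -0.63 and -0.80 on day 6 with DMSO and -0.62 and -0.75 on day 2, -1.20 and -0.94 on day 4 and -2.26 and -2.50 on day 6 with HMBA, so only the DMSO arrays of day 4 were above untreated. Those higher with HMBA were Id2, Id1 (-0.64 ± 0.10), Id3 (-0.95 ± 0.11), the homeobox gene Msx2 (-1.65 ± 0.15, adjusted p = 1.03e-06, 5 DMSO arrays), Bmp4 (-0.60 ± 0.14) and Bambi (-0.41 ± 0.12), with Junb and Tgfbi. Id genes are known targets of BMP, and Msx2, Bmp4 and Bambi are also genes of that branch. So are Bmp7, on the DMSO side, and Id4 (-0.06), Bmp2, Msx1 and Smad5, which were not called. A part of BMP in these differences was not tested. Id1, Id2 and Id3 each differed most on day 4, where Id3 was at 0.02 and 0.34 with DMSO and 2.56 and 2.74 with HMBA (-2.47 ± 0.18, adjusted p = 4.44e-07). Beyond the 4 of smallest p, the genes named here were chosen after their values were seen.

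Of 23 FGF and ERK genes 7 were higher with DMSO and 4 higher with HMBA, against 4.17% and 5.52% of all probes. Fgf8, an embryonic FGF ligand, differed on day 6 alone among the 3 days, at 2.38 and 2.26 with DMSO and 0.23 and -0.24 with HMBA (2.33 ± 0.20, adjusted p = 8.75e-07). Phlda1, a gene induced by growth factors, was higher with HMBA (-1.09 ± 0.10, adjusted p = 1.40e-06). Of 25 Wnt genes 4 were higher with DMSO, with Lef1 and the cyclin gene Ccnd1 (0.98 ± 0.11) first by p, and 2 higher with HMBA. Dkk1, a secreted Wnt inhibitor, was one of the latter: on day 4 its ratio was -0.75 on the 1 DMSO array that measured it and 2.55 and 2.90 with HMBA (-3.39 ± 0.25, adjusted p = 6.55e-07).

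**Figure D3:**
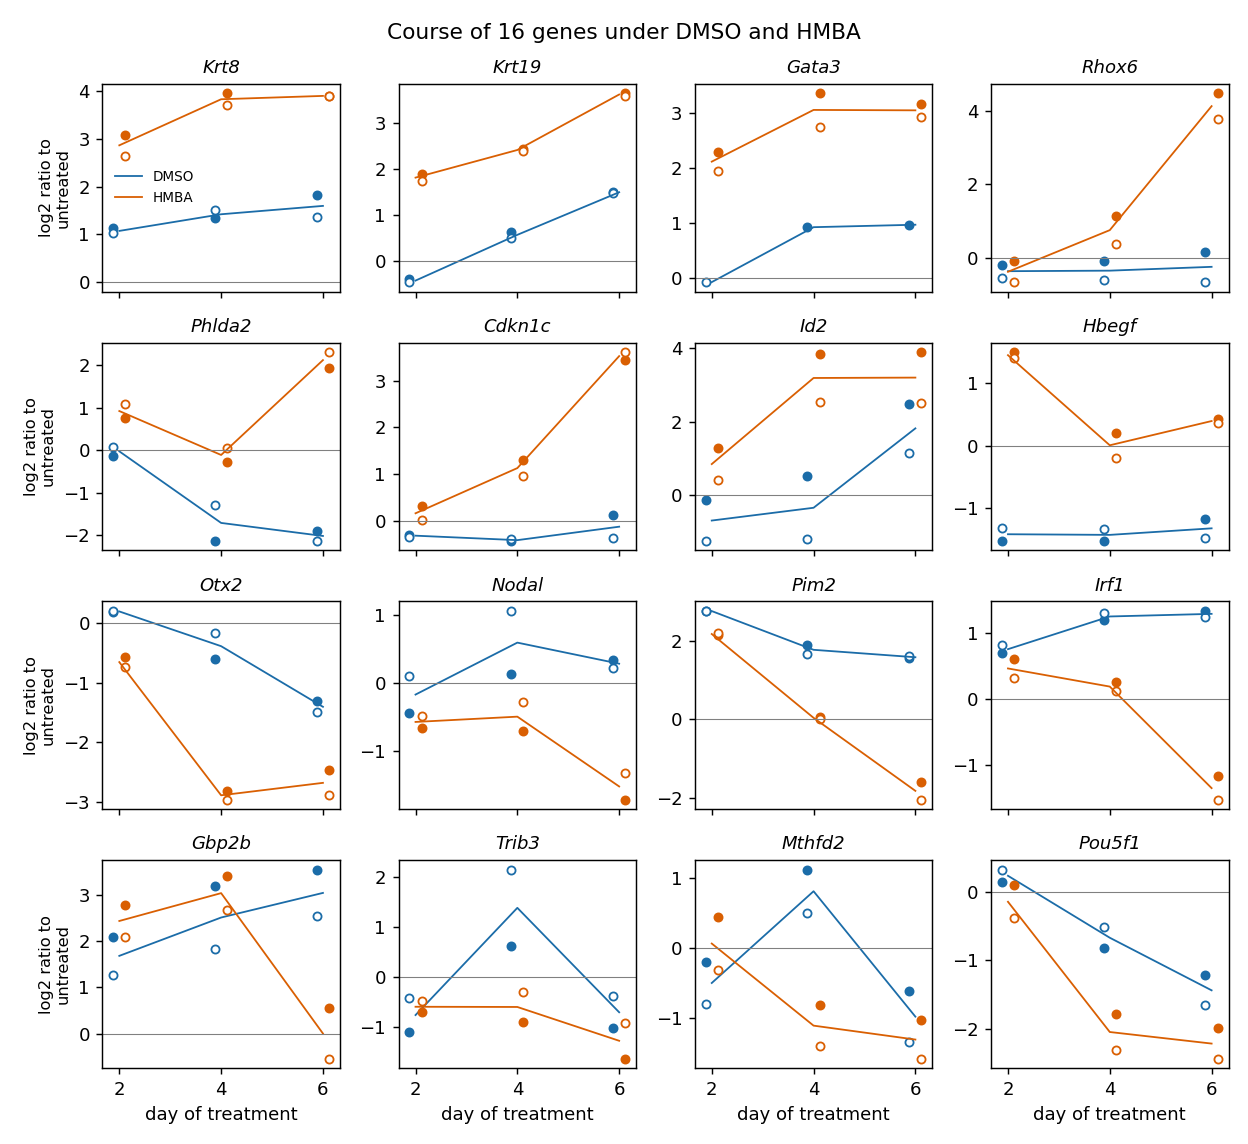
Log2 ratio over untreated cells (vertical axis, a scale of its own in each panel) against day of treatment for 16 genes, with filled points for the sample in Cy3, open points for the sample in Cy5 and lines through the mean of the arrays present. Krt8, Krt19 and Hbegf are apart from day 2 on, Rhox6 and Cdkn1c are farthest apart on day 6, and Trib3 and Mthfd2 have their highest DMSO ratios on day 4.

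Genes of amino acid supply and stress differed on day 4 in particular. Of 32 measured members of the unfolded protein and amino acid stress list, 13 were called higher with DMSO and 0 higher with HMBA on day 4, when 1.36% of all probes were higher with DMSO. On day 2 limma called 0 in either direction (0 higher with DMSO and 3 higher with HMBA at an unadjusted p under 0.05), and on day 6 there was 1 in each. In the mean over days 10 were higher with DMSO and 3 higher with HMBA, against 4.17% and 5.52% of all probes. Those counts were 1 and 0 without the dye term. Cebpb, among the 4 members of smallest p in that mean, was not among the 13 called on day 4. Chac1, which breaks down glutathione, was at 2.33 on the 1 DMSO array of day 4 that measured it and at -0.19 and 0.57 with HMBA (2.45 ± 0.24, adjusted p = 1.62e-05). Psat1, an enzyme of serine synthesis, was at 0.31 and 0.07 with DMSO and -1.39 and -1.57 with HMBA that day (1.67 ± 0.18, adjusted p = 1.62e-05). Trib3, a pseudokinase induced by the stress factor ATF4, was at 0.62 and 2.15 with DMSO and -0.91 and -0.30 with HMBA (1.99 ± 0.26, adjusted p = 1.72e-04). Mthfd2, a mitochondrial folate enzyme, was at 1.12 and 0.51 with DMSO and -0.81 and -1.41 with HMBA (1.92 ± 0.16, adjusted p = 7.95e-07).

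In Chac1, Trib3 and Mthfd2 every DMSO array of day 4 lay above those of days 2 and 6 (1 array on day 4 for Chac1). Psat1 instead held near untreated with DMSO on days 2 and 4 while its HMBA ratios went from 0.14 and 0.07 on day 2 to -1.39 and -1.57 on day 4. The day 4 calls include the DMSO array with few values: without it 10 of the members were called higher with DMSO on day 4, and without the dye term 2 were. Atf4, whose protein drives the response to amino acid shortage, was one of the 13 (1.04 ± 0.18, adjusted p = 0.0024). The chaperone genes Hspa5 (0.03 ± 0.20 on day 4, adjusted p = 0.964) and Hsp90b1 (-0.12 ± 0.20, adjusted p = 0.841) were not called. These 3 genes were chosen after their values were seen.

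Because ATF4 acts through the C/EBP-ATF response element, whose core is TGATGNAA, the 250 bases before the start of each gene were searched for it on both strands, in RefSeq promoters of build GRCm38.p6. All 13 genes called on day 4 matched a promoter, and 4 of them held the core (Chac1, Vldlr, Herpud1 and Asns), as did 2 of the other 18 members with a promoter (Nupr1 and Atf3). Among all 27025 genes 3.91% held it, and 3.45% of 32851 promoter windows. The form TTGCATCA, one form of the core read on the opposite strand, was in 3 of the 13, in the same 2 other members and in 0.918% of all genes. A match describes these letters and is not evidence of binding. Vldlr has another promoter in the set, at chr19:27216234-27216483, which held 0 matches and is not shown. The 4 promoters with a match follow, 5′ to 3′ on the gene's strand, with the element in capitals, to show what these genes share.
Chac1: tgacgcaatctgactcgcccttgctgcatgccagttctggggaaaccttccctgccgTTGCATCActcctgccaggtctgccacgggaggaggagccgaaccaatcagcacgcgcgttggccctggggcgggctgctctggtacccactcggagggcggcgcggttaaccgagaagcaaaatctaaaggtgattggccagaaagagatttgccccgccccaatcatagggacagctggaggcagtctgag
Vldlr: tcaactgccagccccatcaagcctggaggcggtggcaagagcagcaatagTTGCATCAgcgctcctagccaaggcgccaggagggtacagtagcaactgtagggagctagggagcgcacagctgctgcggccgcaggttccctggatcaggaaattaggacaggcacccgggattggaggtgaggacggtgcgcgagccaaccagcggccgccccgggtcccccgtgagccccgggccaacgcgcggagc
Herpud1: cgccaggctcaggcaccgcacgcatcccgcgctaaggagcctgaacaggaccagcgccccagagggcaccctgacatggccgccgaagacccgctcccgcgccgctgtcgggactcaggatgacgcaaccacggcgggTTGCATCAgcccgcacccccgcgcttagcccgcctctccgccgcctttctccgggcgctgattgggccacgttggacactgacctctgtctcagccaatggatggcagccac
Asns: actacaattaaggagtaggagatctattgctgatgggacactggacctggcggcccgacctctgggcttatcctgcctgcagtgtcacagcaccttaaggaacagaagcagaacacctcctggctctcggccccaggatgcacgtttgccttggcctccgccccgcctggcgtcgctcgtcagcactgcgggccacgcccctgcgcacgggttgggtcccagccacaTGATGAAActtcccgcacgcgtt
They lie at chr2:119350992-119351241 (plus strand), chr19:27216770-27217019 (plus strand), chr8:94386179-94386428 (plus strand) and chr6:7693210-7693459 (minus strand), and the element begins 193, 200, 112 and 23 bases before the start. Vldlr, a lipoprotein receptor gene, gave 1.34 ± 0.20 on day 4 (adjusted p = 6.48e-04). Herpud1, of the endoplasmic reticulum degradation pathway, gave 1.41 ± 0.22 (adjusted p = 7.24e-04). Asns, the asparagine synthetase gene, gave 1.20 ± 0.24 (adjusted p = 0.0071), with day 2 at -0.56 and day 6 at -0.07. For comparison, the AP-2 site GCCNNNGGC was in 4 of the 10 HMBA-side trophectoderm genes with a promoter (Krt7, Gata3, Gata2 and Dsp), in 4 of 9 other members and in 15.4% of all genes.

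Interferon and antigen-processing genes parted on day 6. Of 22 measured members 7 were higher with DMSO that day and 0 higher with HMBA, against 2.85% and 3.5% of all probes, with 1 and 1 on day 4 and 0 and 0 on day 2. At an unadjusted p under 0.05 there were 0 higher with HMBA on day 6, and 2 and 2 on day 2. Without the dye term 3 were higher with DMSO on day 6, and 4 were without replicate 1 of DMSO or either HMBA array of that day. Psmb8, a subunit of the immunoproteasome, went from 0.51 and 0.57 on day 2 to 1.92 and 1.74 on day 6 with DMSO and from 0.19 and 0.27 to -0.51 and -0.65 with HMBA. The treatments moved apart to either side of untreated, and the difference on day 6 was 2.41 ± 0.22 (adjusted p = 1.34e-06). Irf1 reached 2.65 ± 0.18 and Psmb10 1.48 ± 0.16 on day 6, and the peptide transporter gene Tap2 1.27 ± 0.17. Gbp2b, an interferon-induced GTPase gene outside the list, was at 2.09 and 1.27 on day 2, 3.19 and 1.83 on day 4 and 3.54 and 2.54 on day 6 with DMSO and 2.77 and 2.10 on day 2, 3.41 and 2.67 on day 4 and 0.55 and -0.54 on day 6 with HMBA, with a difference on day 6 of 3.03 ± 0.19 (adjusted p = 1.34e-08) and none that passed on days 2 and 4.

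**Figure D4:**
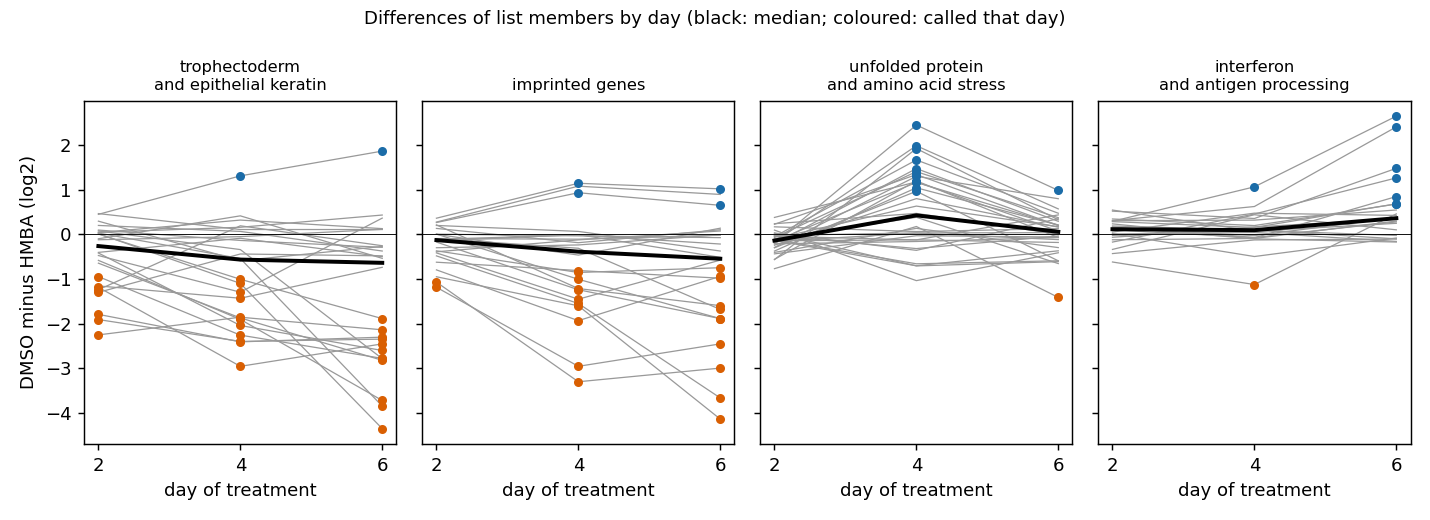
DMSO minus HMBA difference (vertical axis, log2) of each measured member of 4 gene lists on days 2, 4 and 6, with grey lines for members, coloured points for members called that day and a black line for the list's median. Calls on the HMBA side of the trophectoderm list number 7, 12 and 12, calls on the DMSO side of the amino acid stress list 0, 13 and 1, and those of the interferon list 0, 1 and 7.

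On day 2, among genes with values on all 4 arrays of the day and 1 sign in both pairs, the 5 highest with DMSO were Foxd3, Dnmt3b, Bcl11a, Myb and Tet1. Foxd3, a forkhead factor of pluripotent cells, was at 0.53 and 0.98 with DMSO and -0.78 and -0.99 with HMBA (1.64 ± 0.22, adjusted p = 5.42e-04). Dnmt3b differed by 1.60 ± 0.17, the zinc finger gene Bcl11a by 1.51 ± 0.22, the Myb proto-oncogene by 1.44 ± 0.20 and Tet1 by 1.40 ± 0.18. Bcl11a has a second probe, with values on 9 of the 12 arrays, whose mean over days was 0.13, against 1.41 ± 0.14 for the first. Those higher with HMBA on day 2 were Hbegf (-2.85 ± 0.18), S100a6 (-2.47 ± 0.20), the kinase gene Nuak1 (-2.41 ± 0.23), Krt19 (-2.25 ± 0.20) and Ahnak (-2.17 ± 0.17). By the same rule, the largest differences on day 4 were Otx2, Slc7a3, Slc27a2, Trib3 and Mthfd2 on the DMSO side, 1.92 to 2.51, and Id2, Gsn, Peg10, S100a6 and F3 on the HMBA side, -3.53 to -2.53. On day 6 they were Pim2, Sprr2i, Gbp2b, Irf1 and Foxh1, 2.58 to 3.41, and Rhox6, Phlda2, Rhox9, Nrk and Cdkn1c, -4.35 to -3.66.

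The difference itself changed over the days for 459 probes (2.77%), by an F test of the 3 day differences with limma's moderated variance. Of the genes named for it, the difference rose towards DMSO from day 2 to day 6 in Gbp2b (by 3.79 ± 0.27), Pim2 (2.82 ± 0.28), Igfbp3, an insulin-like growth factor binding protein gene (2.42 ± 0.25), Ppp1r1a (2.39 ± 0.26) and Txnip (2.36 ± 0.31). Txnip, an inhibitor of thioredoxin, crossed over: it was lower with DMSO on day 2 (-1.01 ± 0.22, adjusted p = 0.0275) and higher on day 6 (1.35 ± 0.22, adjusted p = 6.77e-04). The change from day 2 to day 6 went towards HMBA in Rhox6 (-4.37 ± 0.26), Rhox9 (-3.88 ± 0.34), Phlda2 (-3.19 ± 0.33), Cdkn1c (-3.18 ± 0.26) and Dppa2 (-2.92 ± 0.27). Krt8, Krt19, Ahnak and Anxa2 are examples of differences whose change over days did not pass the test, with adjusted p of 0.55, 0.911, 0.427 and 0.73. Without the dye term 22 probes passed the test of change.

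Lists were also chosen for what these compounds are known for elsewhere, and their counts are read against 4.17% of all probes higher with DMSO and 5.52% higher with HMBA. Among 23 genes of the 7SK, P-TEFb and BET list, 1 was higher with DMSO and 3 higher with HMBA, with a median of 0.01. The HMBA count was 1 when replicate 1 was left out of DMSO on day 2 or 4, replicate 2 out of DMSO on day 6, or replicate 1 out of HMBA on any day. The DMSO count was 4 without replicate 1 of DMSO on day 4, and 0 without replicate 2 of DMSO on day 6 or replicate 1 of HMBA on day 2. The members called were Larp7, a 7SK-binding protein gene (0.42 ± 0.10), and Myc (-0.56 ± 0.10), Junb (-0.65 ± 0.17) and Polr2a (-0.36 ± 0.11). Cdk9, the P-TEFb kinase, gave 0.01 ± 0.11 (adjusted p = 0.973), its cyclin gene Ccnt1 -0.15 ± 0.12 (adjusted p = 0.524) and the inhibitor gene Hexim2 0.15 ± 0.10 (adjusted p = 0.422). Hexim1 was not analysed here. Of 22 erythroid and haematopoietic genes 1 was higher with DMSO, Myb, and 3 higher with HMBA: Gata2, the GATA cofactor gene Zfpm1 (-0.73 ± 0.11) and the transferrin receptor gene Tfrc (-0.76 ± 0.12). A second Tfrc probe was not called (-0.33, adjusted p = 0.0903). The defining red cell genes did not pass: Gata1 gave 0.06 ± 0.15 (adjusted p = 0.882), Klf1 0.09 ± 0.14 (adjusted p = 0.779) and the alpha globin gene Hba-a1 0.24 ± 0.12 (adjusted p = 0.276).

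Of 26 heart and skeletal muscle genes 1 was higher with DMSO, Tnnt1 (0.37 ± 0.10), and 3 higher with HMBA, Myl4 (-0.64 ± 0.12), Smyd1 (-0.55 ± 0.13) and Acta1 (-0.49 ± 0.12). Smyd1, a muscle methyltransferase gene, differed on day 2 alone, at 0.20 and 0.24 with DMSO and 1.94 and 2.05 with HMBA (-1.77 ± 0.22, adjusted p = 2.23e-04). The cardiac factor gene Nkx2-5 gave 0.00 ± 0.11, Myod1 -0.20 ± 0.15 and Myh6 -0.14 ± 0.12, none of them called. Polyamine genes gave 2 of 18 higher with DMSO and 1 higher with HMBA. Odc1, the rate-limiting enzyme of polyamine synthesis, gave -0.02 ± 0.15 (adjusted p = 0.967) and Sat1, the acetyltransferase that starts their breakdown, -0.32 ± 0.10 (adjusted p = 0.0516). Osmotic stress genes gave 4 of 18 higher with HMBA and 0 higher with DMSO: the small heat shock gene Hspb8 (-0.87 ± 0.11, adjusted p = 4.13e-05), Atp1b1 (-0.62 ± 0.12), the inositol transporter gene Slc5a3 (-0.68 ± 0.14) and Slc38a1 (-0.50 ± 0.13).

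For the next lists too, 4.17% of all probes were higher with DMSO and 5.52% higher with HMBA in the mean over days. Of 28 cholesterol and fatty acid genes 7 were higher with HMBA and 1 higher with DMSO. None was called without the dye term (0 of 28) or with the swapped arrays averaged (0 of 23), and the counts were, under quantile normalization, 3 higher with HMBA and 2 higher with DMSO. The HMBA count was 4 when replicate 1 was left out of DMSO on day 2 or 4, or of HMBA on any day. The fatty acid synthase gene Fasn gave -0.74 ± 0.11 (adjusted p = 3.71e-04) and the desaturase gene Scd2 -0.73 ± 0.12 (adjusted p = 6.84e-04). The other members called in the mean over days were Elovl6, Acsl3, Scd1, Acaca, Fdft1 and Acly. Sterol genes such as Insig1, Mvd, Idi1, Srebf2, Cyp51, Sqle, Dhcr7, Fdps, Lss and Mvk were not called in that mean. On day 4, 9 members were called higher with HMBA, against 2.06% of all probes. That count was 6 without replicate 2 of DMSO and 3 without replicate 1 of DMSO. It was 2 and 4 without replicates 1 and 2 of HMBA, and 1 without the dye term. Immediate early and stress genes gave 7 of 23 higher with HMBA and 0 higher with DMSO, Klf6 (-1.01 ± 0.15) and Fos (-0.82 ± 0.14) among them. Glycolysis and hypoxia genes divided, 4 of 26 higher with DMSO (7 without replicate 1 of DMSO on day 4, 2 without replicate 2 of DMSO on day 2) and 3 higher with HMBA. Ndrg1, a hypoxia-induced gene, was at 0.31 and -0.04 with DMSO on day 6 and 3.05 and 2.89 with HMBA (-2.83 ± 0.17, adjusted p = 1.75e-08). Of 42 cell cycle genes 3 were higher with DMSO and 4 higher with HMBA, near the shares of all probes (4.17% and 5.52%), and 1 was higher with DMSO without replicate 2 of DMSO on day 6 or replicate 1 of HMBA on day 4. Of 30 DNA methylation and chromatin genes 6 were higher with DMSO and 3 higher with HMBA. Limma called 0 of 35 ribosomal protein genes in either direction (4 higher with DMSO and 0 higher with HMBA at an unadjusted p under 0.05) and 1 of 40 respiratory chain genes.

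In lists of other lineages, calls higher with DMSO and with HMBA numbered 2 and 1 of 16 primitive streak and mesoderm genes and 2 and 4 of 23 primitive endoderm genes. They numbered 0 and 4 of 25 neural genes and 0 and 3 of 19 retinoid response genes, against 4.17% and 5.52% of all probes. Leaving out 1 array took the HMBA counts as low as 1 in the primitive endoderm list (without replicate 1 of DMSO on day 4 or 6), 2 in the neural list (without replicate 1 of HMBA on day 6) and 1 in the retinoid list (without replicate 1 of DMSO on day 4, replicate 2 of DMSO on day 6 or replicate 1 of HMBA on day 4). At an unadjusted p under 0.05, members higher with DMSO numbered 1 in the neural list, 2 in the retinoid list, 1 in the osmotic list, 1 in the immediate early list and 1 among endothelial and blood markers. Among the 23 primitive endoderm genes Dkk1, Tfpi, Cited1 and Trf were the 4 higher with HMBA. The lipid carrier gene Apoe (0.92 ± 0.12) and Fst were the 2 higher with DMSO. The defining factors Gata4 (0.11 ± 0.12, adjusted p = 0.68) and Sox7 (0.12 ± 0.16, adjusted p = 0.74) were not called. Among neural genes Nnat, which is imprinted, Gap43 (-1.24 ± 0.13) and Tubb3 (-0.99 ± 0.16) were higher with HMBA, and Pax6 gave -0.06 ± 0.11 (adjusted p = 0.819; -0.78 ± 0.19 on day 6, adjusted p = 0.0166) and Sox1 -0.12 ± 0.16 (adjusted p = 0.756). Fibroblast markers gave 1 and 2 of 11 and endothelial and blood markers 0 and 1 of 9, the last being Flt1 (-1.25 ± 0.11, adjusted p = 4.32e-07). Gata4, Sox7, Pax6 and Sox1 were picked as defining genes with their values in view. The part of such cells in the differences was not tested.

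**Figure D5:**
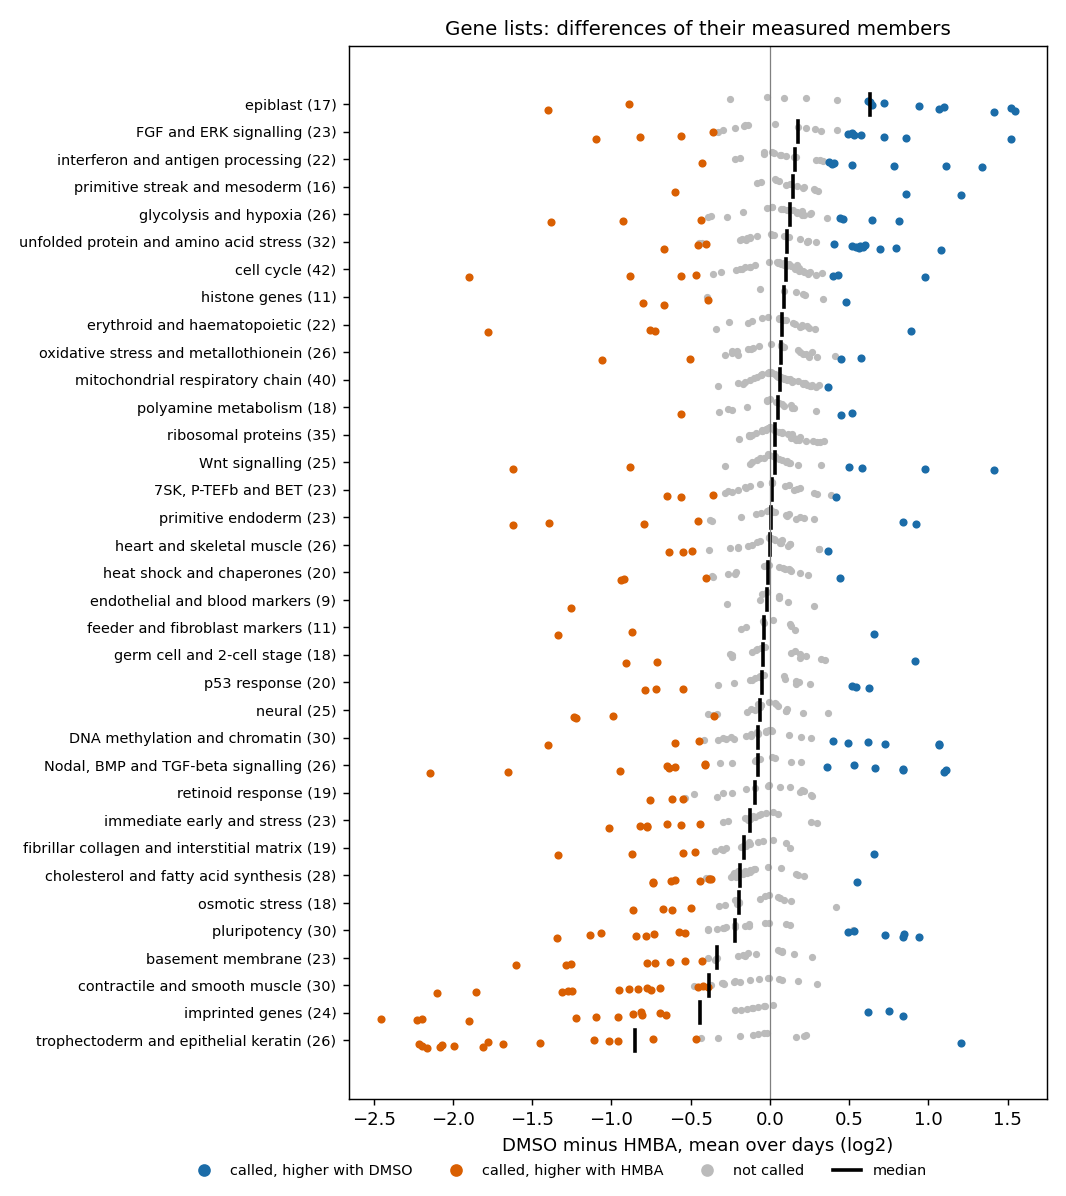
DMSO minus HMBA difference in the mean over days (horizontal axis, log2) of each measured member of 35 gene lists, with the number of members in brackets, coloured points for called members and a black bar for the list's median, lists ordered by median. The medians run from -0.85 in the trophectoderm list to 0.63 in the epiblast list, and the 7SK, P-TEFb and BET list has a median of 0.01.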

How the data were processed

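Values are the log2 ratios the authors deposited for each array, treated over untreated cells. Per the labels' protocols they were turned to sample over reference whatever the dye. The labels name no log base, background correction or normalization, and base 2 was assumed. The median of every array was 0. RNA was reverse transcribed from oligo-dT and coupled to Cy3 or Cy5, per the labels. Of 21106 probes, 16345 have exactly 1 gene name. The 16587 probes with a value in each of the 9 groups were fitted with limma 3.58.1 (R 4.3.3), with 9 group means and dye orientation over 18 arrays. This test was checked on simulated data. Arrays of the same orientation deviated together in all 36 pairs of groups (r = 0.51 to 0.92), so orientation is kept as a block. The SE leaves out the spread between days.

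Genes named are the 12 largest differences each way with 1 sign in all 6 pairs. The 5 largest each way per day and for the change over days are also named, as are Pou5f1, Nanog and Sox2. Of the 4 members of smallest p in each list, some are named and others are not. For the retinoid response list, for example, none of the 4 is named. Genes named beyond these were chosen after their values were seen. The members and lists were chosen with earlier results of these data known. Of 990 list genes, 762 had a tested probe. Alternatives were no dye term, swapped arrays averaged, 12 arrays, complete probes, scaling, quantile normalization, a robust fit, and leaving out each day or array. Figures were drawn with matplotlib 3.10.9.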

Additional observations from a re-analysis of the deposited data

Results flagged for a closer look

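The difference between DMSO and HMBA itself differed between days, by limma's F test, in the 10 genes named for the change over days. From day 2 to day 6 it moved towards DMSO by 3.79 in Gbp2b, 2.82 in Pim2, 2.42 in Igfbp3, 2.39 in Ppp1r1a and 2.36 in Txnip (log2, adjusted p of the F test 2.18e-07 to 5.46e-04). It moved towards HMBA, with changes of -4.37 in Rhox6, -3.88 in Rhox9, -3.19 in Phlda2, -3.18 in Cdkn1c and -2.92 in Dppa2 (adjusted p 5.67e-08 to 3.71e-05). Gbp2b was higher with DMSO on day 6 (3.03) and its differences on days 2 and 4 did not pass. In Txnip (-1.01 on day 2, 1.35 on day 6) and Dppa2 (0.82 and -2.11) the difference passed the test on both days with opposite signs. These genes are the largest changes each way among those called.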

How the results depend on the processing

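Directions of the 67 gene results held in every alternative that fitted them, except for Nanog. It had no difference past the threshold and gave 0.10 without day 2 (adjusted p = 0.644). Averaging the swapped arrays fitted 27 of the gene results, and leaving out a day fitted 47. Most of these genes were picked for 1 sign in their pairs, so their directions could hardly turn and are no separate support. Counts moved far more. With no replicate block, so without pairing by dye orientation, the calls numbered 242 in the mean over days, 18, 64 and 141 on days 2, 4 and 6, and 22 for the change over days, and 19 of 67 gene results lost their call. With swapped arrays averaged the mean gave 199, and 10 of 27 gene results lost theirs. With 12 arrays alone the counts were 317 on day 2, 900 on day 4 and 726 for the change, and without the filter on RA arrays 320, 891 and 721. Scaling gave 354 on day 2, and quantile normalization 351 on day 2 and 298 on day 4. The mean gave 764 without day 4 and 404 without day 6, and without day 6 day 2 gave 104 and day 4 gave 311. With a difference of at least 1 required, the counts were 145, 110, 293 and 442.

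Leaving out 1 array gave 1021 to 1479 in the mean over days, 57 to 217 on day 2, 213 to 551 on day 4, 455 to 1157 on day 6 and 239 to 456 for the change. The mean moved by over 1.5 times without DMSO day 2 replicate 1 (1061), DMSO day 6 replicate 2 (1021), HMBA day 4 replicate 1 (1026) or HMBA day 6 replicate 1 (1064). No gene result lost its call in any of these. The causes were not tested. The number of arrays limits the precision.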

Other observations

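Gene families were also looked at after their values were seen, so they are given as values only. Several called members are already counted in the lists above, among them Anxa2, S100a6, Lgals1, the 4 keratins, Rhox6, Rhox9 and Psmb8. Over all probes 5.52% were higher with HMBA and 4.17% higher with DMSO. Of 9 annexin genes, which encode calcium-dependent membrane-binding proteins, 5 were higher with HMBA and 0 with DMSO. Of 11 S100 genes 3 were higher with HMBA, and of 6 galectin genes 2, Lgals1 and Lgals3. Of 22 keratin genes the 4 called were Krt7, Krt8, Krt19 and Krt20, all higher with HMBA, with a family median of 0.02. Of 4 Rhox genes 3 were higher with HMBA. Of 5 immunoproteasome genes 3 were higher with DMSO.

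Few probes lay on opposite sides of untreated on every array. Below untreated on all 6 DMSO arrays and above it on all 6 HMBA arrays were 7 probes, among them Cd48, a cell-surface protein gene of blood cells, at -0.96 with DMSO and 0.40 with HMBA, and Tmsb4x, an actin-binding thymosin gene, at -0.44 and 0.42. The reverse held for 4 probes, with Cdca7 at 0.43 with DMSO and -0.46 with HMBA. Among the 10964 tested probes with values on all 12 arrays, 48 had every DMSO array above every HMBA array and 78 had every DMSO array below. Both ratios share the untreated reference, and these probes were picked by their values.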
